A study of Danio rerio with 15 samples.

Results

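Janus kinases (JAKs) and signal transducers and activators of transcription (STATs) are represented here by 10 zebrafish genes, the kinases jak1, jak2a, jak2b, jak3 and tyk2 and the transcription factors stat1a, stat1b, stat3, stat4 and stat6. They were chosen by gene name, with earlier results of these data known. Of the 10, 9 have a row among the 15937 genes of the table, and stat1b was not analysed here. All 9 passed the filter on low values, with 59 to 6057 reads per library behind each value.

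JAKs are tyrosine kinases bound to the inner side of cytokine receptors. When a cytokine brings receptor chains together, the kinases phosphorylate each other and the receptor, STAT proteins dock there and are phosphorylated, and STAT dimers enter the nucleus and activate genes, among them the SOCS inhibitors that switch the receptor off again. In myeloid cells this pathway carries signals of granulocyte colony-stimulating factor, interleukin-6 and interferons, and in mammals JAK3 works with the common gamma chain of the interleukin-2 receptor family.

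RNA was sequenced from neutrophils of whole zebrafish embryos, sorted by the reporter mpx:GFP, in which the promoter of the myeloperoxidase gene drives a green fluorescent protein, so that any cell in which this reporter is active could be in the sort. The 5 groups of 3 libraries were wildtype at 2 days post fertilization (dpf), wildtype at 1.5 dpf, tet2-/- at 2 dpf, tet3-/- at 2 dpf and the double mutant labelled tet2/3DM at 2 dpf. All groups were sorted with this reporter, and the labels describe neither the mutant lesions nor the strain. Tet2 and Tet3 are enzymes that oxidise 5-methylcytosine in DNA.

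Recovered totals ran from 5.64 to 31.06 M reads per library, with tet3 mutant replicates 1 and 2 the shallowest and the 3 double mutants the deepest. The targeted genes do not check the genotypes, since a lesion need not lower its mRNA: tet2 ran from 1462 to 1994 in tet2 mutants against 1542 to 1893 in wildtype at 2 dpf, and tet3 from 1532 to 2237 in tet3 mutants against 1166 to 1620.4. Neutrophil genes were high in all groups, with lyz, the lysozyme gene, between 68382 and 198732 in every library, and macrophage genes were present too, with mpeg1.1 between 3656 and 9788. Nothing in the labels tells separate clutches or sorts from repeat libraries, and p-values here measure a spread among libraries that could be technical. In sorted bulk RNA, fewer cells of a type and less RNA per cell cannot be told apart.

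Some libraries stood apart. tet2 mutant replicate 1 was the lowest of all 15 libraries for 6 of the 9 members, namely jak1, jak2a, tyk2, stat3, stat4 and stat6, and for 15.9% of all tested genes. It correlated with the other tet2 mutants at 0.885 and 0.895, while these correlated with each other at 0.941. Its total, 13.29 M reads, was close to theirs. Summed macrophage genes were at 17119 there against 39139 and 39354 in the other tet2 mutants, and summed neutrophil genes at 140710.0 against 304222 and 354068. Epidermal genes were higher there, at 88996 against 11721 and 13372, and so were neural genes, at 28750 against 5234 and 10530. The part of these differences in the members' values was not tested. Double mutants correlated with each other at 0.881 to 0.944, against 0.957 to 0.968 in wildtype at 2 dpf, and lowest between replicates 1 and 2. Replicate 1 was the lowest of all libraries for 2 members, jak3 and stat1a, and for 9.8% of all tested genes. It held the muscle gene actc1b at 16295, against 81.6 and 422 in double mutant replicates 2 and 3. In replicate 2 the heat shock gene hsp70l was at 156506, against 5505 in replicate 1 and 41711 in replicate 3. The part of these in the members' values was not tested. Results that change without 1 library are given with and without it. Where 2 groups are said not to overlap, an exact permutation test of 3 against 3 libraries can give no p below 0.1. The share of all genes that separate in this way was not counted. A group lying wholly above or below another is therefore given only as a description of its values.

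jak3 was lowest in the double mutants by a wide margin, and it was the only member that passed the test between double mutants and wildtype at 2 dpf. The values below are normalised read counts, that is reads over a library's size factor, and they are not scaled by gene length. jak3 (ENSDARG00000010252) stood at 1072, 852 and 1039.9 in the 3 wildtype libraries at 2 dpf and at 108, 113 and 124 in the 3 double mutants. Every double mutant library was below every other library of the study. The group means were 988 ± 119 (SD, n = 3) and 115 ± 8.35 (SD, n = 3), and limma on log2(value + 1) gave a change of -3.08 (SE 0.28, 95% interval -3.67 to -2.5), 8.48-fold lower, with an adjusted p of 7.2e-06 (Benjamini-Hochberg over 15933 genes), rank 12 of all genes by p. In that comparison 8.68% of all tested genes passed, and 1 of the 9 members did.

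**Figure D1:**
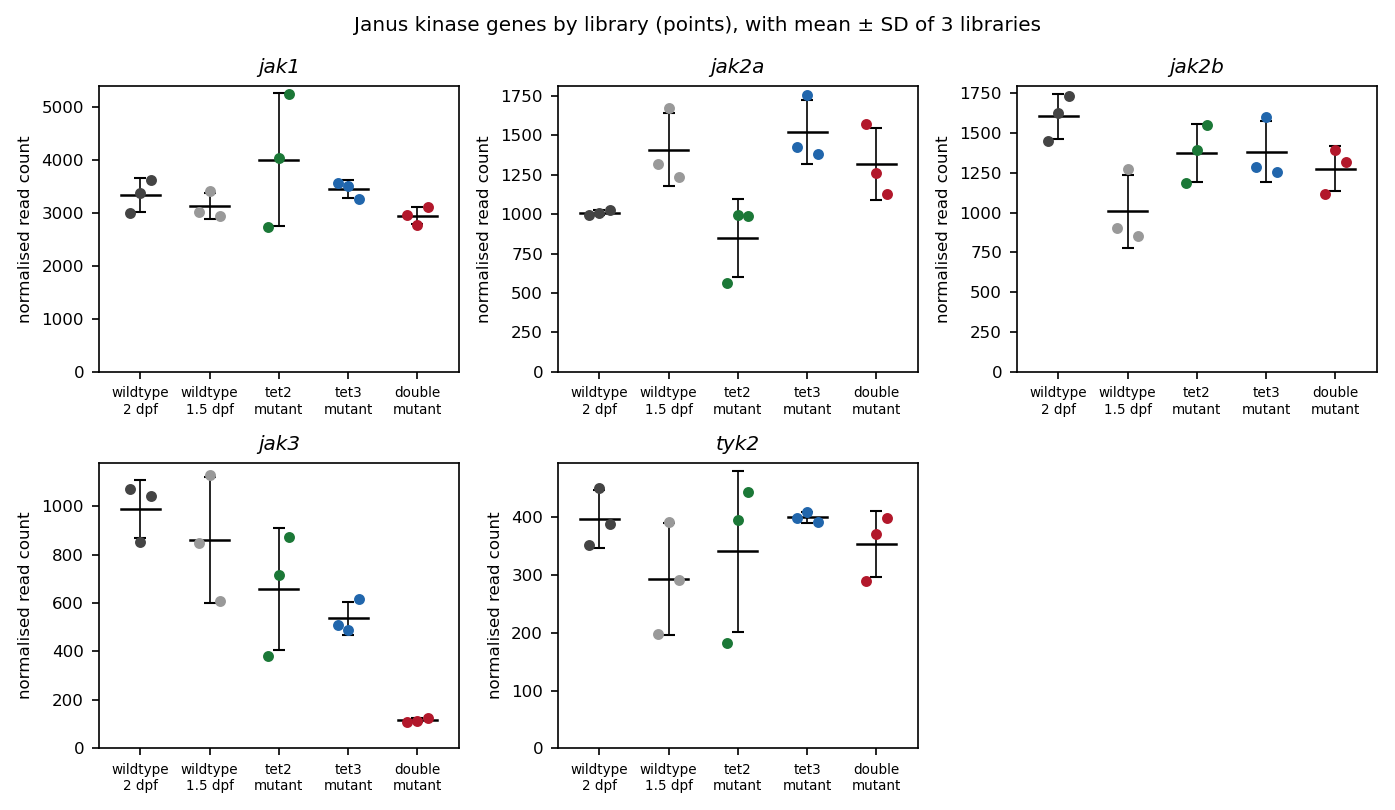
Normalised read counts of the 5 Janus kinase genes (y axes, from 0) in the 15 libraries by group (x axes), each point a library and the bar and whiskers the mean ± SD of 3 libraries. The jak3 panel shows the double mutants between 108 and 124, below all other libraries, and the jak2b panel shows wildtype at 1.5 dpf below wildtype at 2 dpf.

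The single mutants lay between these ends. jak3 was 507, 489 and 615 in tet3 mutants, each below every wildtype library at 2 dpf, and 383, 717 and 873 in tet2 mutants, of which replicate 3 was above the lowest wildtype library. Wildtype at 1.5 dpf gave 846, 1129 and 607 and overlapped wildtype at 2 dpf. By mean the order was thus wildtype at 2 dpf, wildtype at 1.5 dpf, tet2 mutants, tet3 mutants and double mutants. The ranges of each neighbouring pair overlapped, except tet3 mutants and double mutants, whose ranges were far apart.

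Between tet3 mutants and wildtype at 2 dpf the change was -0.88 (SE 0.28, 95% interval -1.47 to -0.29), which did not pass (adjusted p = 0.066), and between tet2 mutants and wildtype it was -0.66 (-1.25 to -0.07, adjusted p = 0.71). Double mutants were lower than tet2 mutants by 5.36-fold (log2 change -2.42, SE 0.28, adjusted p = 0.00011) and lower than tet3 mutants by 4.62-fold (-2.21, SE 0.28, adjusted p = 0.00044). They were also 7.2-fold lower than wildtype at 1.5 dpf (-2.85, SE 0.28, adjusted p = 1.3e-05). Between tet3 mutants and wildtype at 1.5 dpf the change was -0.64 (-1.23 to -0.05, adjusted p = 0.16). These comparisons share groups, and each is therefore given with its own values only.

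Whether the double mutants fell further than the sum of both single mutant changes was tested as an interaction on the log2 scale. For jak3 the interaction was -1.55 (SE 0.39, 95% interval -2.38 to -0.71), and it did not pass (adjusted p = 0.13). Without tet2 mutant replicate 1 it was -1.89 and passed (adjusted p = 0.011), and DESeq2 on the recovered reads also called it (-1.63, adjusted p = 0.012). Only 0.333% of all tested genes passed for the interaction and 0 of 9 members did. stat1a had the next smallest p, with -1.04 (-1.9 to -0.18, adjusted p = 0.48), and 2 members had an unadjusted p under 0.05. These were jak3 and stat1a, at ranks 140 and 701 of 15933 genes by p.

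The jak3 call between double mutants and wildtype at 2 dpf held under all 19 alternative settings, with log2 changes from -3.19 to -2.83 and adjusted p no higher than 0.0048. The one jak3 call that was lost was that against tet3 mutants without the shallow replicates 1 and 2, with a change of -2.41. There 1 tet3 mutant library is left and is assumed to vary like the other groups. Most genes called between these 2 groups lost their call in that fit. A measure that moves with the groups is hsp70l, a heat shock gene, which with hsp70.3 took 3.52 to 4.14% of the normalised total in wildtype at 2 dpf and 0.0789 to 1.89% in double mutants. That share was 2.18 to 4.88% in tet2 mutants, 0.279 to 0.299% in tet3 mutants and 0.057 to 0.107% at 1.5 dpf. With hsp70l as a covariate, jak3 still passed in each of the 4 comparisons of double mutants. In these fits 0.998% of all tested genes passed against wildtype at 2 dpf and 0.678% against tet2 mutants. Against tet3 mutants 3.22% passed and against wildtype at 1.5 dpf 6.63%. The hsp70l share did not overlap between double mutants and wildtype at 2 dpf, so there the covariate cannot tell heat shock from genotype.

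jak1 (ENSDARG00000020625), the kinase shared by interferon, gp130 and common gamma chain receptors, overlapped between the mutants and wildtype. It was 2994, 3382 and 3629 in wildtype at 2 dpf, 3574, 3513 and 3264 in tet3 mutants and 2968, 2781 and 3105 in double mutants. tet2 mutants ran from 2729.6 to 5252 and held both the lowest and the highest library of the study. At 1.5 dpf jak1 was 3025, 3407 and 2947, within the range of the mutants. The change in double mutants was -0.17 (95% interval -0.59 to 0.24, adjusted p = 0.66). Against tet2 mutants it was -0.39 (-0.81 to 0.02, adjusted p = 0.32), and without tet2 mutant replicate 1 it was -0.64 and passed (adjusted p = 0.031).

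tyk2 (ENSDARG00000020326), the kinase of type I interferon and interleukin-12 receptors, was 352, 451 and 388 in wildtype at 2 dpf and 289.6, 371 and 399 in double mutants, and these ranges overlapped. Its tet3 mutant libraries were close together, at 399, 409 and 391. The log2 changes were -0.17 (95% interval -0.82 to 0.48) in double mutants, 0.02 (-0.63 to 0.67) in tet3 mutants and -0.31 (-0.96 to 0.34) in tet2 mutants, none past the threshold. In tet2 mutants tyk2 was 182, 396 and 444 and at 1.5 dpf 198, 392 and 291, again overlapping wildtype at 2 dpf.

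The gene of Jak2, the kinase of the erythropoietin, growth hormone and interleukin-6 type receptors, is present in zebrafish as the duplicates jak2a and jak2b, and they are described side by side. jak2a (ENSDARG00000104808) was 995, 1006 and 1024 in wildtype at 2 dpf. It was 1319, 1672 and 1236 at 1.5 dpf, 1427, 1753 and 1384 in tet3 mutants and 1571, 1257 and 1124 in double mutants, so that every library of these 3 groups lay above every wildtype library at 2 dpf. None of those differences passed, with log2 changes of 0.47 (adjusted p = 0.14), 0.58 (adjusted p = 0.12) and 0.37 (adjusted p = 0.34). How common such a separation is among all genes was not counted. The tet2 mutants were at 564, 995 and 986, with replicate 2 at the lowest wildtype value and the others below it.

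jak2b (ENSDARG00000018882) was 1452, 1625 and 1736 in wildtype at 2 dpf and 903, 1273 and 854 at 1.5 dpf, with no overlap. It was the only member that passed between the ages, 1.61-fold lower at 1.5 dpf (log2 change -0.69, SE 0.19, adjusted p = 0.018). There 20.8% of all tested genes passed, so 1 of 9 members is no more than the background. With hsp70l as a covariate the change was -0.16 (adjusted p = 0.92), and 0.257% of all tested genes passed in that fit. The call was also lost without wildtype 2 dpf replicate 2 (adjusted p = 0.06) or 3 (adjusted p = 0.076) and without 1.5 dpf replicate 1 (adjusted p = 0.076) or 3 (adjusted p = 0.058). Cell type markers differed between the ages too. All 8 tested erythroid genes were higher at 1.5 dpf, with a sum of 117933 to 122922 against 2906 to 5577, as were 8 of 10 pigment cell genes, and 3 of 7 epidermal and 8 of 9 heat shock genes were lower. Of 14 macrophage genes 1 was higher and 5 were lower, and of 9 neural genes 3 were higher and 3 lower. The part of these in the jak2b result was not tested. In wildtype, hsp70l with hsp70.3 took 3.52 to 4.14% of the normalised total at 2 dpf and 0.057 to 0.107% at 1.5 dpf. The hsp70l covariate thus nearly stands for age here, and it cannot tell heat shock from age. In double mutants jak2b was 1118, 1392 and 1319, a log2 change of -0.33 (-0.73 to 0.07, adjusted p = 0.32). The tet2 mutants gave 1184, 1393 and 1548, and the tet3 mutants 1287, 1602 and 1255, both overlapping wildtype at 2 dpf.

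The share of jak2a in the sum of both duplicates, a measure chosen after the values were seen, does not depend on the size factors. It was 40.7, 38.2 and 37.1% in wildtype at 2 dpf and 32.3, 41.7 and 38.9% in tet2 mutants. It was 59.4, 56.8 and 59.1% at 1.5 dpf, 52.6, 52.2 and 52.4% in tet3 mutants and 58.4, 47.5 and 46.0% in double mutants, and each of these 9 libraries lay above all wildtype libraries at 2 dpf. The means were 38.7 ± 1.81% (SD, n = 3) in wildtype at 2 dpf, 58.4 ± 1.44% (SD, n = 3) at 1.5 dpf, 52.4 ± 0.17% (SD, n = 3) in tet3 mutants and 50.6 ± 6.79% (SD, n = 3) in double mutants. A two-sided exact permutation test against wildtype at 2 dpf gave p = 0.1 for each of the 3 groups and p = 0.9 for tet2 mutants. With 3 against 3 libraries 0.1 is the smallest p possible. It follows from the separation given above and adds nothing to it. Reads that match both duplicates could have been assigned to either, and how such reads were counted is not known here.

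**Figure D2:**
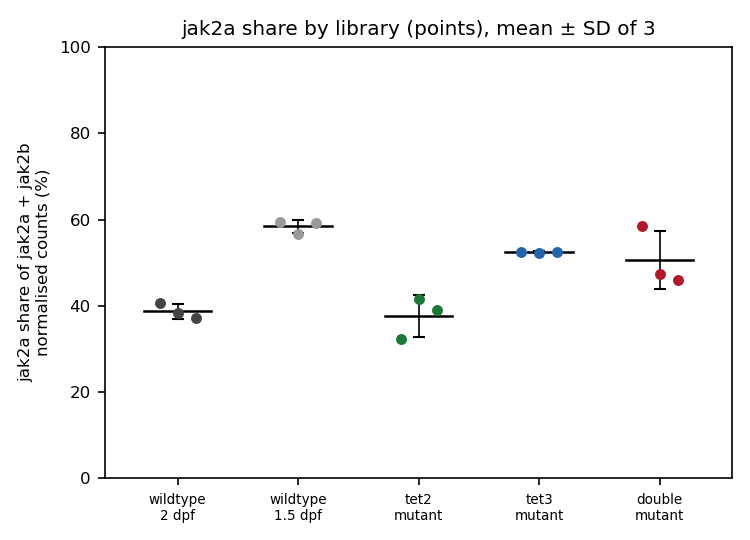
The share of jak2a in the summed normalised counts of jak2a and jak2b (y axis, percent, from 0 to 100) by group (x axis), each point a library and the bar and whiskers the mean ± SD of 3 libraries. Wildtype at 2 dpf and tet2 mutants lie between 32.3 and 41.7%, and the other 3 groups between 46.0 and 59.4%.

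Of the STAT genes, stat3 stood highest in double mutants and tet3 mutants. stat3 (ENSDARG00000022712), the factor downstream of gp130 and of the granulocyte colony-stimulating factor receptor, was 647, 768 and 778 in wildtype at 2 dpf, 1260.1, 1219 and 1045 in tet3 mutants and 1199.9, 1143 and 1383 in double mutants. Neither mutant group overlapped wildtype at 2 dpf, and wildtype at 1.5 dpf, at 842, 1009 and 874, lay between them. The changes did not pass, at 0.76 (SE 0.24, 95% interval 0.25 to 1.27, adjusted p = 0.061) in double mutants and 0.68 (SE 0.24, 0.17 to 1.19, adjusted p = 0.098) in tet3 mutants. DESeq2 on the recovered reads called the first (0.76, adjusted p = 0.028) but not the second.

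Against tet2 mutants, which were at 398, 931 and 730.5, stat3 was 1.91-fold higher in the 3 double mutant libraries (0.93 on the log2 scale, SE 0.24, adjusted p = 0.035). With jak3 this made 2 of 9 members in a comparison where 4.45% of all tested genes passed. The lowest tet2 mutant library, replicate 1, weighs on this value: without it the change was 0.59 and did not pass (adjusted p = 0.086). The call was also lost without tet2 mutant replicate 3 (adjusted p = 0.061) and without double mutant replicate 1 (adjusted p = 0.081) or 3 (adjusted p = 0.15). It was lost too with edgeR on the recovered reads (adjusted p = 0.054), reads thinned to 1 depth (adjusted p = 0.083), only the groups compared (adjusted p = 0.32) and hsp70l as a covariate (adjusted p = 0.44). The change itself was 0.85 to 0.93 under these 4 settings.

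stat1a (ENSDARG00000006266), a factor of interferon signalling, was higher in tet3 mutants and in younger wildtype embryos by its values, though not by the test. It was 368, 543 and 452 in wildtype at 2 dpf, 890.3, 802 and 824 in tet3 mutants and 784, 807 and 684 at 1.5 dpf. Both groups lay wholly above wildtype at 2 dpf, with log2 changes of 0.9 (SE 0.29, 95% interval 0.29 to 1.51, adjusted p = 0.069) and 0.75 (0.14 to 1.36, adjusted p = 0.075). The double mutants, at 292, 737 and 593, and the tet2 mutants, at 436, 753 and 519.6, overlapped wildtype at 2 dpf. In double mutants the change was 0.17 (-0.45 to 0.78, adjusted p = 0.79), and against tet3 mutants it was -0.73 (-1.35 to -0.12, adjusted p = 0.23). How reads shared with its duplicate stat1b were counted is not known here.

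stat4 (ENSDARG00000028731), the factor of interleukin-12 signalling, was 278, 208 and 218 in wildtype at 2 dpf and 140.1, 183 and 167 in double mutants, and at 1.5 dpf it was 162, 148 and 120.2. Every library of both groups was below every wildtype library at 2 dpf. Neither change passed, at -0.52 (95% interval -1.18 to 0.15, adjusted p = 0.35) and -0.71 (-1.37 to -0.04, adjusted p = 0.12). In tet2 mutants stat4 was 91.2, 228 and 197 and in tet3 mutants 156, 170.5 and 229, each overlapping wildtype at 2 dpf. The fewest reads of any member, 59, are those of stat4.

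stat6 (ENSDARG00000015902), the factor of interleukin-4 and interleukin-13 signalling, was 744, 874 and 1093 in wildtype at 2 dpf and 718, 616 and 808 in double mutants, with overlap. The log2 change was -0.33 (95% interval -0.77 to 0.11, adjusted p = 0.37). The other groups overlapped as well, with 572, 706 and 864 in tet2 mutants, 1004, 873 and 698 in tet3 mutants and 760.4, 868 and 742 at 1.5 dpf. Its highest library was 1.91 times its lowest, the narrowest range of the 9 members. For jak3 that ratio was 10.4, and for the other 7 members it ran from 1.92 to 3.47.

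**Figure D3:**
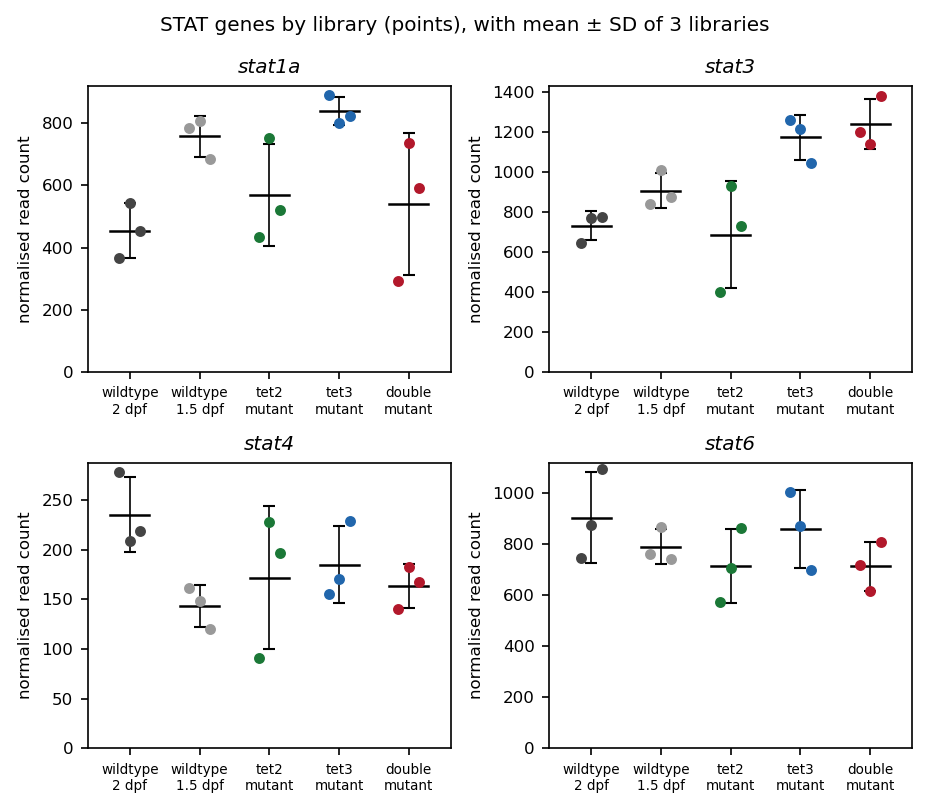
Normalised read counts of the 4 STAT genes (y axes, from 0) in the 15 libraries by group (x axes), each point a library and the bar and whiskers the mean ± SD of 3 libraries. For stat3 the tet3 mutants and double mutants lie between 1045 and 1383, all above the wildtype libraries at 2 dpf, which reach 778.

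Across the comparisons, calls among the members were few. Between tet3 mutants and wildtype at 2 dpf 0 of 9 passed, where 7.27% of all tested genes did. Of the 9, jak2a, jak3, stat1a and stat3 had an unadjusted p under 0.05, which is no result on its own. By p these 4 members ranked from 1440 to 2270 of 15933 genes. Of the 9 members edgeR called 0, where it called 6.32% of all tested genes. DESeq2 called jak3 and stat1a, where it called 10.9% of all tested genes. Fitted with only the tet3 mutant and wildtype libraries, limma called all 4, jak3 with an adjusted p of 0.00031, and 24.6% of all tested genes passed in that fit.

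Between tet2 mutants and wildtype limma called 0.100% of all tested genes, edgeR 0.0753% and DESeq2 0.697%. Each called 0 of the 9 members. Only jak3 had an unadjusted p under 0.05, at rank 674 of 15933 genes. Between double mutants and tet3 mutants jak3 alone passed, where 2.33% of all tested genes did, and between double mutants and wildtype at 1.5 dpf jak3 alone passed, where 14.2% did. Between tet3 mutants and wildtype at 1.5 dpf 0 of 9 passed, where 9.91% of all tested genes did. There jak2b and jak3 had an unadjusted p under 0.05, at ranks 2982 and 3412 of 15933 genes. edgeR and DESeq2 each called 0 members, where they called 8.65 and 13.3% of all tested genes.

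**Figure D4:**
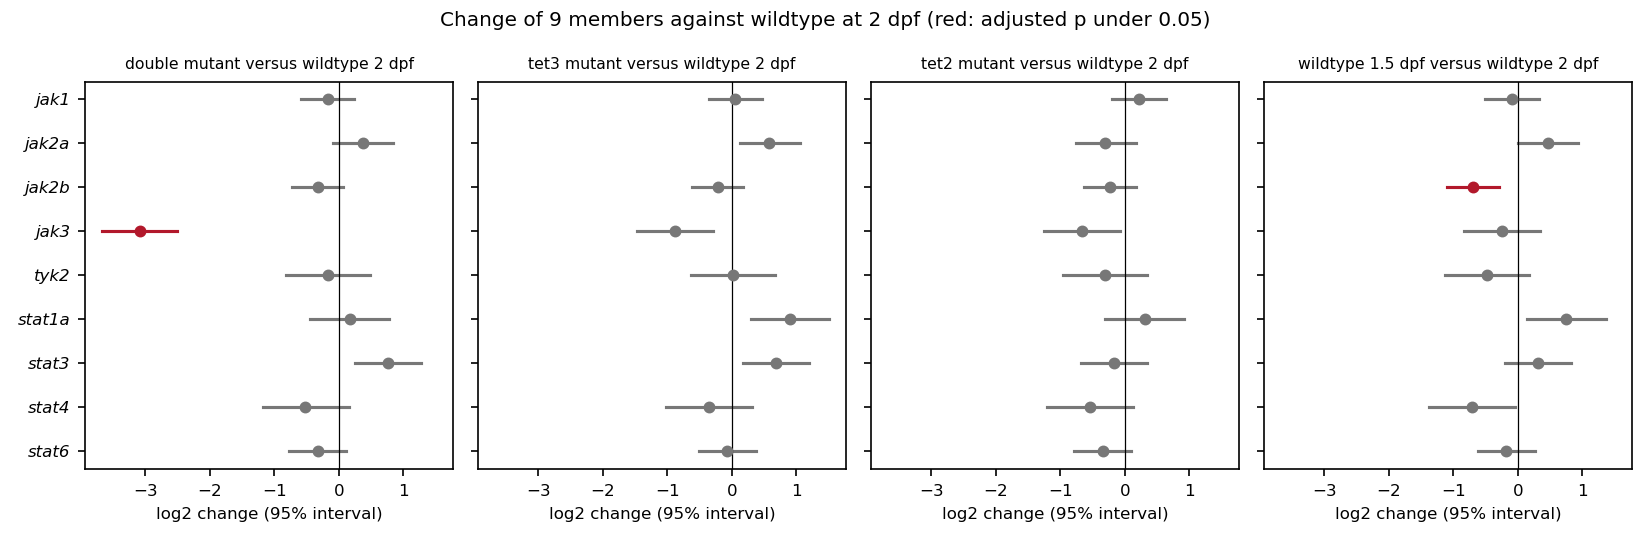
Log2 change of the 9 members (y axis) against wildtype at 2 dpf (x axis, limma on log2(value + 1), with 95% intervals) in double mutants, tet3 mutants, tet2 mutants and wildtype at 1.5 dpf, with red for an adjusted p under 0.05. jak3 in double mutants, at -3.08, and jak2b at 1.5 dpf, at -0.69, are the calls.

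Among genes that act next to the members, the receptor partner of Jak3 fell as well. These lists were chosen with earlier results of these data known. il2rga, the common gamma chain to which JAK3 binds in mammals, was 274, 304 and 231 in wildtype at 2 dpf and 93.1, 93.5 and 82.1 in double mutants, with every double mutant below all other libraries. It was 2.98-fold lower (-1.57 on the log2 scale, SE 0.31, adjusted p = 0.0042), but with hsp70l as a covariate it no longer passed (-1.56, adjusted p = 0.17). In tet3 mutants, at 214, 186 and 203, the change was -0.42 (95% interval -1.07 to 0.23, adjusted p = 0.45).

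The 3 genes most like jak3 over the 15 libraries were named, with Pearson's r of log2(value + 1) as the measure of likeness and as a description only. They were kctd12.2 (r = 0.981), wasb (r = 0.975), which encodes a WASp regulator of actin in blood cells, and marco (r = 0.964), a scavenger receptor of macrophages. The mean of kctd12.2 was 1921 in wildtype at 2 dpf, 1330 in tet3 mutants and 614 in double mutants. wasb had means of 2743, 1709 and 621 in the same groups, and marco of 3873, 2242 and 877. All 3 genes were lowest in the double mutants, as jak3 was, which follows largely from their choice by likeness to jak3 in these same libraries. The points share libraries, groups and size factors.

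**Figure D5:**
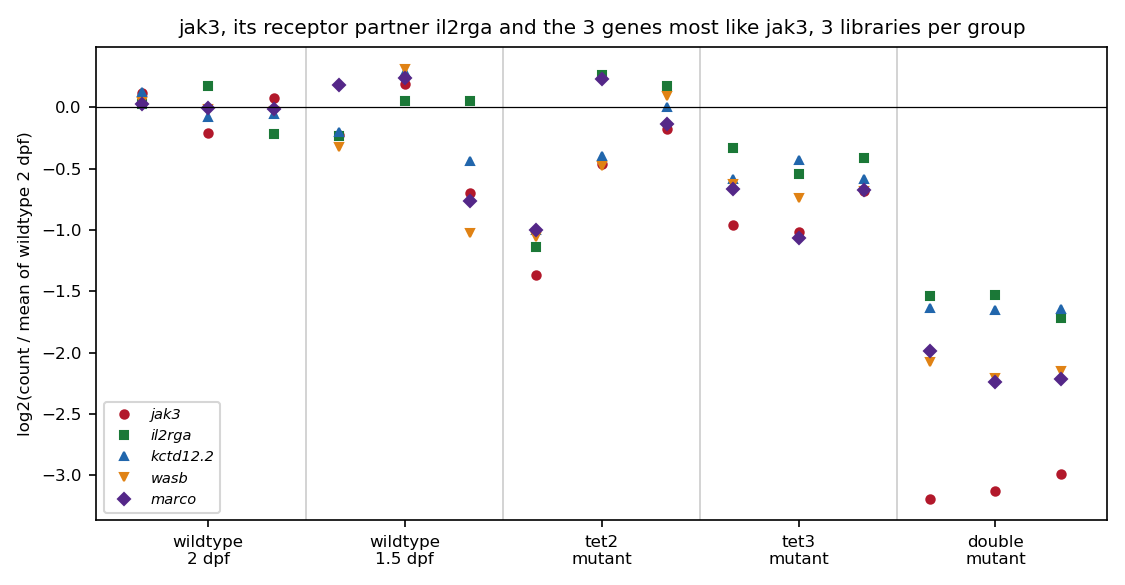
Normalised count of jak3, il2rga, kctd12.2, wasb and marco in each library, divided by the gene's mean in wildtype at 2 dpf, on a log2 scale (y axis), with the 3 libraries of each group side by side (x axis). All 5 genes are lowest in the double mutants, where jak3 lies furthest below the wildtype level. kctd12.2, wasb and marco were chosen for their likeness to jak3 in these same libraries.

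Because the sort can hold other cells, the marker lists are given beside the jak3 result. Between double mutants and wildtype at 2 dpf limma called 8.68% of all tested genes, edgeR 8.52% and DESeq2 13.1%. Of 14 macrophage genes, 6 were lower and 1 higher in double mutants. The lower ones included marco (log2 change -2.15) and irf8 (-1.4), while mpeg1.1 did not pass (-0.45, adjusted p = 0.3). Further below wildtype than marco by its values was lgals3bpb, at 80.0 to 299 in double mutants against 4166 to 4700. So were c1qa, at 9.31 to 11.9 against 132 to 156, c1qb, at 16.4 to 44.6 against 214 to 298, and c1qc, at 13.6 to 62.7 against 292 to 459. By their values others lay higher, with grna at 5995 to 7772 in double mutants against 3135 to 3371, and ctss2.1 at 8085 to 19926 against 5682 to 7468. The summed macrophage value was 39048 to 43356 in wildtype at 2 dpf and 30435 to 48826 in double mutants. Of 14 lymphoid genes 6 were analysed, without lck, zap70, rag1 and 5 others, with a sum of 3090.3 to 3277 in wildtype and 1544 to 2097 in double mutants, and ccr9a alone passed (-1.89). None of these 6 was at 0 in wildtype at 2 dpf or in double mutants. Of 12 endothelial genes 8 were lower and the sum was 8020 to 8617 against 2528 to 2929. The 10 neutrophil genes analysed summed to 206428 to 263097 against 160897 to 203881. Of them limma and edgeR called 0 and DESeq2 3, with 6 at an unadjusted p under 0.05. Of 10 pigment cell genes 5 were higher, with a sum of 4437 to 8542 in double mutants against 694 to 818 in wildtype, and of 9 neural genes 2 were higher, with 8607 to 19664 against 6195 to 7177. Of 10 muscle genes 2 were lower, with 1442 to 40566 against 16039 to 17705. Of the 9 heat shock genes 7 were lower, and of 8 erythroid genes 1 was, with a sum of 3717 to 16065 against 2906 to 5577. The 7 epidermal genes summed to 28372 to 35680 against 24441 to 31313, and limma, edgeR and DESeq2 called 0 of them, with 0 at an unadjusted p under 0.05. The part of the cell type differences in the jak3 result was not tested.

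Of 40 listed cytokine receptor genes 30 were tested, and in double mutants 1 was higher and 3 were lower than in wildtype at 2 dpf, with a median log2 change of -0.1 against 0.01 over all genes. These are 13.3% of the tested receptor genes, against 8.68% of all tested genes, in a list chosen with earlier results of these data known. Besides il2rga the lower genes were il13ra2, whose mammalian product is a decoy for interleukin-13 (-2.51, SE 0.61, adjusted p = 0.017), and crfb1, a chain of the zebrafish virus-induced interferon receptor (-1.21, SE 0.32, adjusted p = 0.027). il6st, the gp130 chain that signals through Jak1 and Stat3, rose from 969.8, 994 and 1030.4 in wildtype to 1610.0, 2496 and 2195 in double mutants (1.05, SE 0.25, adjusted p = 0.016). It was also higher in tet3 mutants (1.21, SE 0.25, adjusted p = 0.011), where 3 receptor genes were higher and 0 lower.

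Of 17 ligand genes 10 were tested, and 0 passed between double mutants and wildtype at 2 dpf, where 8.68% of all tested genes did. Of the 10, 5 had an unadjusted p under 0.05, edgeR called 0 (8.52% of all tested genes) and DESeq2 3 (13.1%). In tet3 mutants il6 (3.5, SE 0.76, adjusted p = 0.016) and csf3a, a granulocyte colony-stimulating factor (2.6, SE 0.67, adjusted p = 0.03), were higher, named here after their values were seen. These were 20.0% of the tested ligand genes, against 7.27% of all tested genes. il6 was 237, 299 and 176 in wildtype at 2 dpf, 2452, 2377 and 3136 in tet3 mutants and 176, 100.3 and 64.1 in double mutants. The double mutants overlapped wildtype at 2 dpf.

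Of 31 listed inhibitors of the pathway 24 were tested, and in double mutants 5 were higher and 1 was lower than in wildtype at 2 dpf. The median log2 change of the 24 was 0.13, against 0.01 over all genes. The calls were 25.0% of the tested inhibitors, against 8.68% of all tested genes, in a list chosen with earlier results of these data known. The 5 higher genes were the SOCS genes socs2, socs3b, socs5a, socs5b and socs9. The lower gene was cblb, a ubiquitin ligase (-1.55, SE 0.22, adjusted p = 0.00033). socs3b, the inhibitor of gp130 and of the granulocyte colony-stimulating factor receptor in mammals as Socs3, stood at 679, 463 and 543 in wildtype and 5114, 1855 and 2456 in double mutants (2.36, SE 0.34, adjusted p = 0.00045). socs9 (1.8, adjusted p = 0.0041) and socs5b (1.13, adjusted p = 0.018) were also higher. In tet3 mutants 3 inhibitors were higher and 2 lower, 20.8% of those tested against 7.27% of all tested genes. There socs3b was again higher (2.13, adjusted p = 0.0019). With hsp70l as a covariate, which nearly stands for the group there, socs3b did not pass (0.6, adjusted p = 0.57).

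Of 29 genes known as STAT targets 21 were tested. In double mutants 1 was higher, cebpd (1.33, adjusted p = 0.018), and 4 were lower, with a median log2 change of -0.42 against 0.01 over all genes. The calls were 23.8% of the tested targets, against 8.68% of all tested genes, in a list chosen with earlier results of these data known. mcl1a, an inhibitor of cell death, went from 60961, 58010.0 and 56071 in wildtype to 8414, 12143 and 7004 (-2.7, SE 0.3, adjusted p = 6e-05). The interferon-induced genes mxc (-3.84, SE 0.48, adjusted p = 0.00013) and isg15 (-4.33, SE 0.81, adjusted p = 0.0033) and the kinase gene pim1 (-0.74, SE 0.17, adjusted p = 0.014) were the others. In tet3 mutants 2 were higher and 4 lower, 28.6% of the tested targets against 7.27% of all tested genes. There mcl1a (-3.05, adjusted p = 8e-05) and isg15 (-8.03) fell as well, while mxc did not pass (-0.32, adjusted p = 0.75). The size of the isg15 change depended on the setting, from -9.19 to -5.71 over 20 alternatives. The falls of mcl1a and isg15 are thus not particular to the double mutants.

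These list counts moved with the settings in both directions. With hsp70l as a covariate, 0 receptor and 0 inhibitor genes passed between double mutants and wildtype at 2 dpf, and of the STAT targets 2 did, mcl1a and mxc, where 0.998% of all tested genes passed. Among genes that no longer passed, il6st (1.37), socs5b (1.47) and il2rga (-1.56) had changes in that fit that were larger or within 0.01 of those above. The changes were smaller for il13ra2 (-0.12), crfb1 (-0.57), socs3b (1.15), socs9 (1.38), cblb (-1.05), isg15 (-2.72) and pim1 (-0.33). In tet3 mutants the same covariate left 0 receptors, ligands, inhibitors and targets called, and 0.132% of all tested genes. hsp70l with hsp70.3 took 0.279 to 0.299% of the normalised total in tet3 mutants and 3.52 to 4.14% in wildtype at 2 dpf. The covariate thus nearly stands for the group in that comparison, and it cannot tell heat shock from genotype.

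Library weights raised the counts in double mutants to 12 receptors, 6 ligands, 12 inhibitors and 15 targets, where 35.1% of all tested genes passed. In tet3 mutants they gave 11 receptors, 9 inhibitors and 14 targets, where 25.0% passed. Fitted with only the groups compared, double mutants had 3 ligands and 9 targets called, where 10.8% of all tested genes passed. In that fit tet3 mutants had 13 receptors, 4 ligands, 9 inhibitors and 13 targets called, where 24.6% passed. Single libraries mattered as well. With 1 library left out, 4.32 to 10.5% of all tested genes passed in double mutants and 2.40 to 4.70% in tet3 mutants, each against wildtype at 2 dpf. The 4 receptor calls became 1 without wildtype 2 dpf replicate 1 or 2 and 2 without replicate 3 or double mutant replicate 1. The 6 inhibitor calls became 3 without wildtype 2 dpf replicate 1 or double mutant replicate 2, and the 5 target calls became 3 without wildtype 2 dpf replicate 2. Of the named genes, il6st, il13ra2, crfb1, socs5b and pim1 each lost their call without at least 1 library, with adjusted p from 0.051 to 0.1, while il2rga, cblb, socs3b, socs9, mcl1a, mxc and isg15 passed without any 1 library. In tet3 mutants, without the shallow replicates 1 and 2, 1 tet3 mutant library is left. Most list calls were lost in that fit, as were most calls over all tested genes. Changes there were 1.37 for il6st, 2.45 for socs3b, -1.26 for cblb and 1.23 for socs9. The 3 receptor calls in tet3 mutants became 1 without wildtype 2 dpf replicate 2 or 3 or any 1 tet3 mutant library. The 2 ligand calls became 0 without wildtype 2 dpf replicate 1 or 3 and 1 without any other library. The 5 inhibitor calls became 2 or 3 without any wildtype 2 dpf library or tet3 mutant replicate 1.

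Over all 5 lists, 88 genes outside the members were tested. Of these 15 were called in double mutants, 16 in tet3 mutants and 24 at 1.5 dpf, each against wildtype at 2 dpf. These are 17.0, 18.2 and 27.3% of the 88, against 8.68, 7.27 and 20.8% of all tested genes. Because the lists were chosen with earlier results of these data known, these shares cannot test an excess of calls. In tet2 mutants limma and edgeR called 0 of the 88 and DESeq2 1, with 9 at an unadjusted p under 0.05. Of all tested genes limma called 0.100%, edgeR 0.0753% and DESeq2 0.697% there. At 1.5 dpf 4 receptor genes were higher and 3 lower, 3 ligand genes higher and 0 lower, 3 inhibitors higher and 2 lower, and 3 STAT targets higher and 5 lower. The STAT genes outside the 9 members, stat2, stat5a and stat5b, had 0 calls between double mutants and wildtype by limma, edgeR or DESeq2 and 1 unadjusted p under 0.05, with log2 changes of -0.35 (adjusted p = 0.7), -1.13 (adjusted p = 0.082) and -0.44 (adjusted p = 0.26). limma called 1 of the 3 with a replicate block, where 7.66% of all tested genes passed, and 1 without double mutant replicate 2, where 10.5% did. With library weights it called 3, where 35.1% passed. Between the ages stat5b was lower at 1.5 dpf (-0.77, adjusted p = 0.024).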

How the data were processed

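RNA of neutrophils sorted from embryos was sequenced in 15 libraries, prepared with a TruSeq v2 kit, per the labels' protocols. Because this kit keeps no strand, a gene and an overlapping antisense gene share reads. The submitters' processing notes name TopHat, Cufflinks and DESeq2 without versions; build, annotation and counter are not given in the sources here. The values are a signal for each gene in each library, which the authors deposited as reads over a library's size factor. The values themselves show this, since 100% came out as whole reads within a tolerance of 0.01 reads.

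Groups were taken from the titles. limma 3.58.1 (R 4.3.3), with trend and robust moderation, was fitted on log2(value + 1) for 5 group means over all 15 libraries, a scale that understates changes of low genes. A gene was kept if 3 or more libraries had a value of 10 or more, which left 15933 genes and removed 4. The 9 comparisons were tested on both sides, adjusted by Benjamini-Hochberg over all tested genes, with a threshold of 0.05. Counts at an unadjusted p under 0.05 are given without the share of all genes at that cut and are no result on their own. As alternatives, the recovered reads were tested with edgeR 4.0.16 and DESeq2 1.42.0. Other alternatives changed the pseudocount, filter, scaling, library weights, libraries in the fit, a replicate block, hsp70l as a covariate, a common depth, and each library left out. The limma step was tested on simulated data with 1 set spread for all genes. Between double mutants and wildtype at 2 dpf it recovered 12 of 100 2-fold and 90 of 100 4-fold changes, with 8 false calls. Most 2-fold changes were thus missed there.

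The members, lists and tests were chosen with earlier results of these data known. Named genes are all members, up to 4 called genes of each pathway list with the smallest p in double mutants against wildtype at 2 dpf, and the 3 genes most correlated with each member called in a mutant. Further genes were named after their values were seen, as members of short lists of calls or as markers. For pairs of libraries from the same group, chi-square per degree of freedom ran from 3.96 to 284, above what read sampling alone would give. No pair is thus a mere split of the same library, but repeat libraries of the same RNA are not excluded. The lowest value was that of tet3 mutant replicates 1 and 2, the shallowest libraries, which gave 13.3 and 13.8 against replicate 3. Correlations within that group were alike, at 0.941 to 0.942. Whether replicates 1 and 2 are independent samples was not tested. No sequence or coordinate is given, because no genome of the build was used.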

Additional observations from a re-analysis of the deposited data

How the results depend on the processing

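Over 81 pairs of member and comparison, 1585 of 1629 alternative values kept their side of the threshold, 14 lost a call, 30 gained one and 0 called values reversed; among values called under neither setting 55 changed sign, at most to a size of 0.65. The number of members called moved as follows, with the percent of all tested genes called in the same fit in brackets. Between double mutants and wildtype at 2 dpf it was 1 (8.68%). It was 2 with DESeq2 (13.1%), library weights (35.1%) or only the groups compared (10.8%), as stat3 was added. Between tet3 mutants and wildtype at 2 dpf it was 0 (7.27%). It was 2 with DESeq2 (10.9%) and 4 with library weights (25.0%) or only the groups compared (24.6%). Between the ages it was 1 (20.8%), and 0 with hsp70l as a covariate (0.257%) and 2 with only the groups compared (26.2%). It was 4 with library weights (41.7%) and 0 to 1 with each library left out (11.6 to 20.8%). Between double mutants and tet2 mutants it was 2 (4.45%). It was 1 with edgeR (4.44%), hsp70l as a covariate (0.678%), thinned reads (3.91%) or only the groups compared (0.414%). It was 3 with library weights (12%) and 1 to 2 with each library left out (2.37 to 7.19%). Between double mutants and tet3 mutants it was 1 (2.33%), and 2 with hsp70l as a covariate (3.22%). Without the shallow tet3 mutant libraries, an alternative chosen after seeing the data, 1 tet3 mutant library is left. There jak3 lost its call, as given above, and so did most genes called in the main fit. The jak3 change was -2.41. Between double mutants and wildtype at 1.5 dpf it was 1 (14.2%), and 2 with hsp70l as a covariate (6.63%) and 4 with library weights (34.6%). Between tet3 mutants and wildtype at 1.5 dpf it was 0 (9.91%), and 3 with library weights (22.6%). For the interaction it was 0 (0.333%), and 1 with DESeq2 (1.48%) or library weights (3.13%) and 0 to 1 with each library left out (0.0879 to 0.885%). The cause of these moves was not tested.

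Replicate numbers did not pair the samples: same-numbered deviations correlated at -0.29 to 0.19, and the best match had the same number in 16 of 60 cases. With a replicate block 1 member was called in double mutants against wildtype at 2 dpf, as without it, and no other count of members moved, while of the 3 other STAT genes 1 was called in place of 0; over all genes 1221 were called in place of 1383. Depth limits stat4 most, with as few as 59 reads in a library.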
